A study of Mus musculus with 32 samples.

Results

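The genes described here are those of the synaptic vesicle release machinery in mouse striatum. They were chosen by name: the protein-coding genes whose GENCODE M21 symbol places them in the synaptotagmin, syntaxin, syntaxin-binding, SNAP, VAMP, synapsin, complexin, RIM, Unc13 or Rab3 series, with Syp, Synpr, Sv2a and Sv2c. The rule found 91 genes among the 54532 of the count table, of which 21995 were protein-coding. It is a rule on letters, so 12 of the 91 are Rab30 to Rab39b, which are not Rab3 proteins but share the first characters of the name, and Snap91 is an endocytic coat adaptor rather than a SNARE. The rule reads names and no measured value, and the group was proposed with earlier results of these data known.

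Neurotransmitter is released when a vesicle SNARE of the VAMP family zips together with the target membrane SNAREs of the syntaxin and SNAP families and fuses the vesicle with the plasma membrane. Munc18 proteins (Stxbp genes) and Munc13 proteins (Unc13 genes) prepare the SNAREs, RIM and Rab3 proteins hold the vesicle at the active zone, complexins bind the assembled SNARE complex, and synaptotagmins sense the calcium that triggers fusion. In striatum most of the neurons are inhibitory spiny projection neurons, and much of the release machinery protein there sits in axons that arrive from cortex and thalamus, whose messenger RNA is largely made in cell bodies elsewhere.

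Striatal poly(A) RNA was sequenced from 32 mice at 6 months of age, 8 in each of 4 genotypes, to ask how loss of the mismatch repair gene Msh3 bears on the transcriptional changes of a Huntington's disease model. Wild-type, Msh3-/- and zQ175 mice were 4 males and 4 females each, and zQ175:Msh3-/- mice were 5 males and 3 females. zQ175 mice carry a highly expanded CAG repeat knocked into the endogenous Htt gene, so every cell that uses the Htt promoter makes the mutant protein. The Msh3-/- mice descend from a CRISPR knockout line made with guides to exons 3 and 8, and all mice were bred on a C57BL/6J background as littermates.

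The libraries held 12359347 to 25030335 counts. Msh3 itself stood at 24.5 ± 1.61 CPM (counts scaled to library size; mean ± SD, n = 8) in wild-type and 24.4 ± 1.53 in zQ175 mice, against 11.8 ± 1.197 in Msh3-/- and 12.9 ± 1.15 in zQ175:Msh3-/- mice, and the ranges with and without the knockout did not overlap. These counts are for the whole gene and do not single out the deleted region. The paper reported that PCR inside that region found Msh3 mRNA ablated in Msh3-/- cortex, and that MSH3 protein was not detected there. CPM values here are scaled by TMM factors, which correct for the make-up of each library. Where 4 values are listed for a gene they are for wild-type, then Msh3-/-, then zQ175, then zQ175:Msh3-/- animals. Marker genes showed that the dissections differed between mice: the summed level of 6 cortical pyramidal neuron markers ran from 60.1 to 704 CPM, and that of 4 choroid plexus markers from 28.6 to 2847 CPM. The 9 spiny projection neuron markers were all expressed, with a summed level of 7633 to 9357 CPM in wild-type mice and 4086 to 5347 CPM in zQ175 mice, and 8 of the 9 were lower in zQ175. In whole tissue, fewer cells of a type and less RNA per cell cannot be told apart.

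The levels of the 91 genes in wild-type striatum spanned several orders of magnitude. On the TPM scale, which divides by transcript length as well as by depth and so allows genes to be compared with each other, Snap25 was the most abundant at 1130 ± 72.3 TPM (SD, n = 8). Cplx2 followed at 904 ± 41.5, Vamp2 at 738 ± 37.5, Syp at 565 ± 68.2, Cplx1 at 517 ± 31.97 and Rab3a at 517 ± 24.5 TPM, and the last 2 did not differ beyond their spread. Among synaptotagmins Syt1, the sensor of fast synchronous release in forebrain, stood at 456 ± 26.0 TPM and Syt11, a family member that does not bind calcium, at 454 ± 10.5 TPM. Unc13a, which encodes the priming protein Munc13-1, was measured at 128 ± 13.0 TPM. A set of 6 paralogs lay near the limit of detection and were left out of the tests: Cplx4 had 0 to 2 reads in a library, Rab38 0 to 5, Syt8 0 to 1, Stx11 0 to 12, Stx19 1 to 12 and Vamp9 1 to 13.

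**Figure D1:**
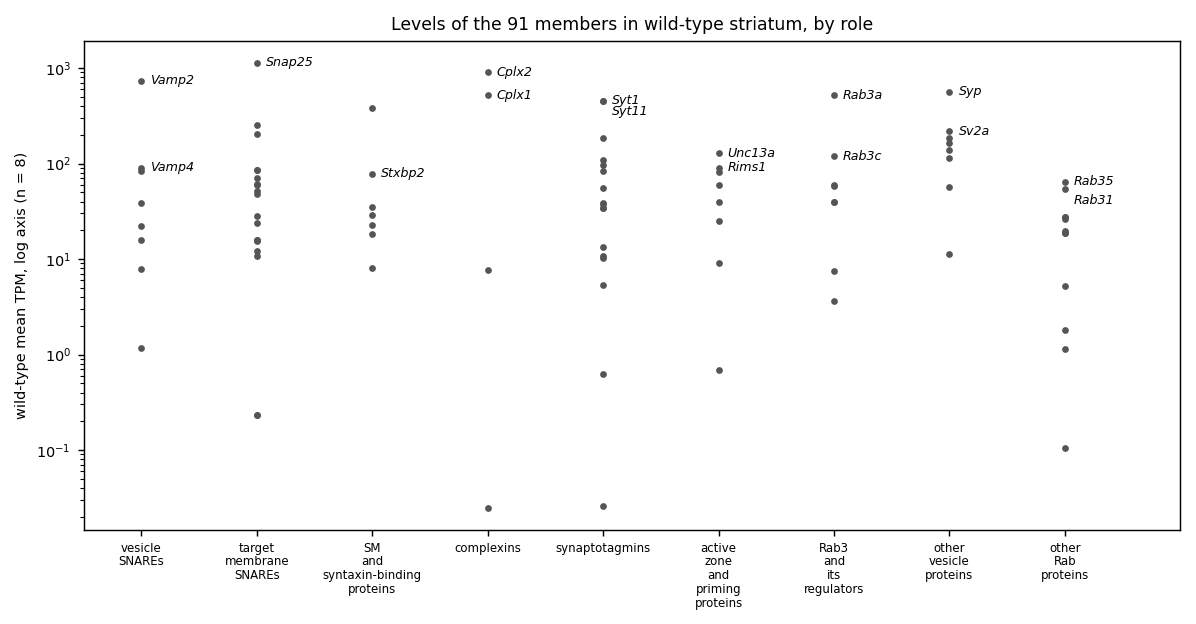
Mean wild-type level of each of the 91 genes (TPM on a log axis, n = 8 mice), by role, with 1 or 2 of the most abundant genes of each role named. The most abundant gene of a role ranged from Snap25 at 1130 TPM among target membrane SNAREs to Rab35 at 64.7 TPM among the Rab proteins outside the Rab3 group. Snap25 made up 52.1% of the summed TPM of its role and Rab35 24.4%.

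In zQ175 against wild-type mice, 8 of the 85 tested genes passed both an adjusted p below 0.05 in edgeR's quasi-likelihood test and a fold change of at least 1.2, which is 9.41% against 11.6% of all 16610 tested genes. The 3 that rose were Syp, Unc13b and Syn1 (4.7% of all genes rose), and the 5 that fell were Syt10, Syt9, Syt2, Cplx2 and Syt6 (6.89% of all genes fell). By the adjusted p alone 31 of the 85 passed, 17 higher and 14 lower, or 36.5% against 26.5% of all genes. In 7 of the 85 no value of one genotype reached into the range of the other, 8.24% against 6.63% of all genes. The median size of the log2 change was 0.11 for the 85 and 0.11 for all genes.

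In zQ175:Msh3-/- against Msh3-/- mice, which share no animal with the first comparison, 10 of the 85 passed both thresholds, 11.8% against 10.6% of all genes. Unc13b, Syp, Rab33a and Stxbp6 rose (4.68% of all genes did), and Syt10, Syt9, Syt2, Rab3ip, Syt12 and Syt6 fell (5.96% of all genes did). The adjusted p alone was passed by 28 of the 85, or 32.9% against 24.1%, and 6 of the 85 had ranges that did not overlap, 7.06% against 5.39%. In all, 6 genes passed both thresholds in both comparisons, 75% of the first list and 60% of the second: Syt10, Syt9, Syt2, Syt6, Syp and Unc13b, each in the same direction. Across all 85, 68 had the same sign in both comparisons, 80% against 77.8% of all tested genes. On TPM values tested by limma the split was different, with 7 higher and 2 lower in the first comparison and 7 higher and 3 lower in the second. All genes shifted the same way: in those fits 59.9% and 68.6% of all called genes were higher, against 39.3% and 42.7% with DESeq2 on counts, and the median log2 change of all genes tested was 0.07 and 0.09.

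**Figure D2:**
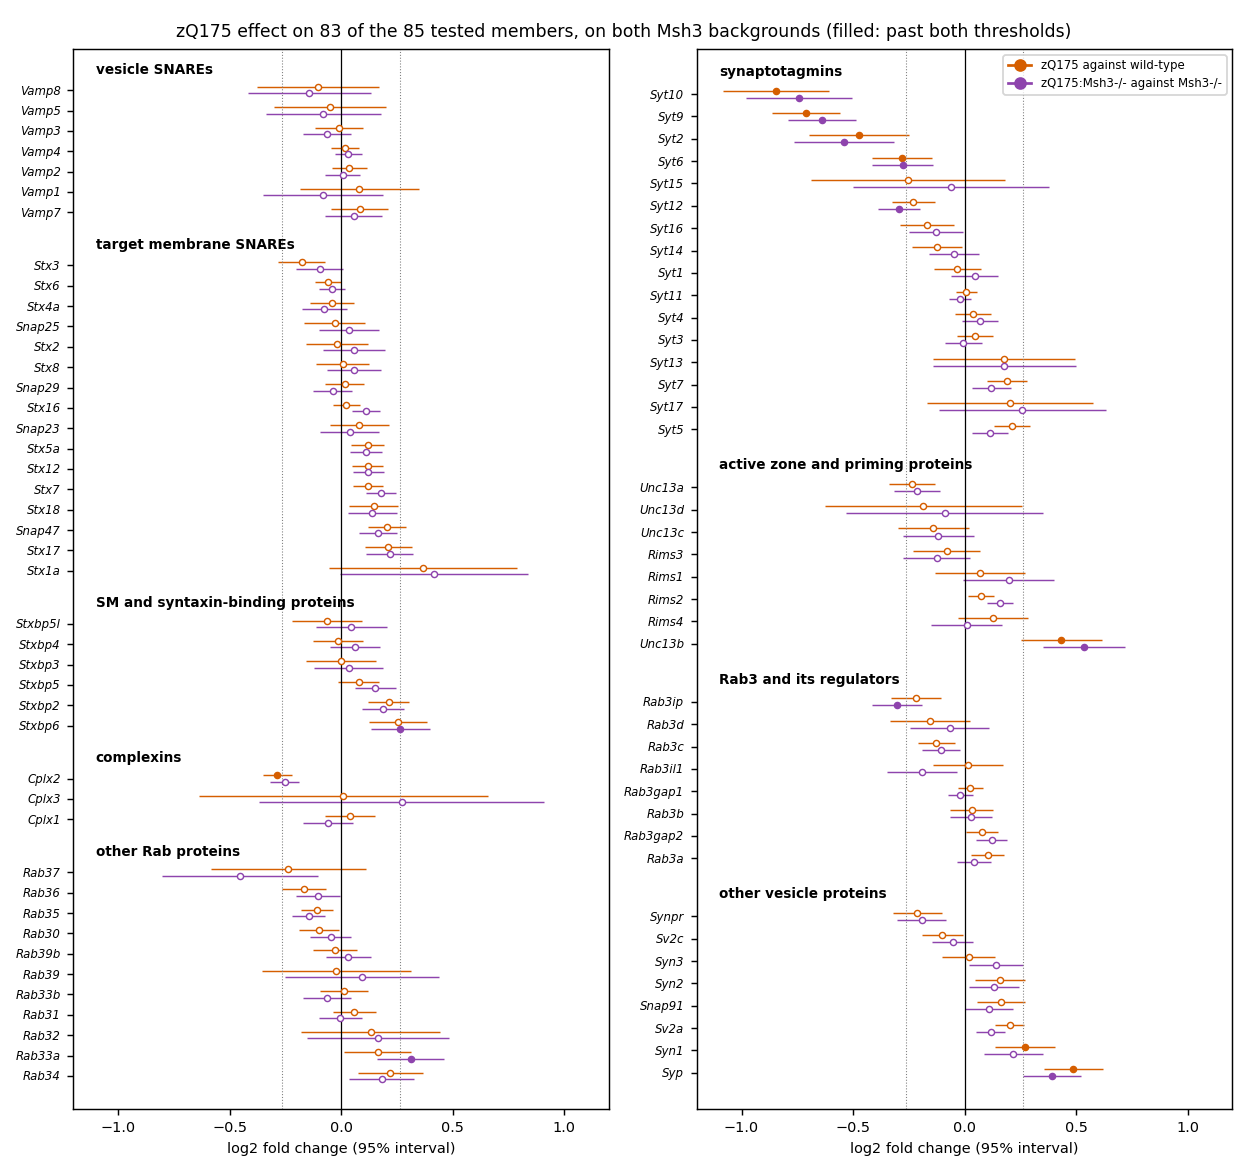
Log2 fold change with its 95% interval for 83 of the 85 tested genes, by role, in zQ175 against wild-type (orange) and zQ175:Msh3-/- against Msh3-/- (purple). Filled points passed both thresholds and dotted lines mark a fold change of 1.2. The 3 genes with the lowest values in each comparison, Syt10, Syt9 and Syt2, are synaptotagmins, while the vesicle SNAREs lie on both sides of 0.

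Promoter sequences are shown for the 3 called genes that rose and the 3 that fell most in zQ175 against wild-type, and for Unc13a, which was lower where its paralog Unc13b was higher. They run from 250 bases before to 50 bases after the RefSeq start on GRCm38.p6, read 5′ to 3′ on the gene's strand, and RefSeq gave such a sequence for 70 of the 91 genes. In these 7 the RefSeq start lay 0 to 109 bases from the start of the GENCODE gene. Capitals mark matches, on either strand, to the GC box GGGCGG (on the other strand CCGCCC), the cyclic AMP response element TGACGTCA, the E-box CACGTG, and the left part TTCAGCACC and right part GGACAGCGC of RE1, the element that the neuronal repressor REST is known to bind. No matches to different motifs overlapped in the sequences shown.
Syt9, chr7:107370540-107370839, plus strand: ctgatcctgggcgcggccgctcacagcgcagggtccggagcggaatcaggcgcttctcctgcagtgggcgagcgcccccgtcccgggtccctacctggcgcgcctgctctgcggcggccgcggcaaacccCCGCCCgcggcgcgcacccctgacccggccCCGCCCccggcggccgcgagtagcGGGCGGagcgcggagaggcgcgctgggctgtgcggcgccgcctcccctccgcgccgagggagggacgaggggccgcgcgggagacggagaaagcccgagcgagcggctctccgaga
Syt10, chr15:89841811-89842110, minus strand: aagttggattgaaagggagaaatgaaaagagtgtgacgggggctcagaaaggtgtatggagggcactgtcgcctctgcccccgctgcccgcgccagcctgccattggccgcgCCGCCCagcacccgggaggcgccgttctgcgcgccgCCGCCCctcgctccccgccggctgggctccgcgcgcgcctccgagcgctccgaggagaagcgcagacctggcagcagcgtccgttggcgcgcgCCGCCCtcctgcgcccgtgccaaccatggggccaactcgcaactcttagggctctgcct
Syt2, chr1:134646362-134646661, plus strand: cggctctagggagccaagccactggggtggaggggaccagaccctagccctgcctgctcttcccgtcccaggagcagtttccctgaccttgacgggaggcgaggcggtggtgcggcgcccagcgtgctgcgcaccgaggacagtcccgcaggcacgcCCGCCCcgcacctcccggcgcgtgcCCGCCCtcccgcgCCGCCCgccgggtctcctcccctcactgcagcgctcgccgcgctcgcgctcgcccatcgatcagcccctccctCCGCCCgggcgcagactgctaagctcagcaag
Syp, chrX:7638330-7638629, plus strand: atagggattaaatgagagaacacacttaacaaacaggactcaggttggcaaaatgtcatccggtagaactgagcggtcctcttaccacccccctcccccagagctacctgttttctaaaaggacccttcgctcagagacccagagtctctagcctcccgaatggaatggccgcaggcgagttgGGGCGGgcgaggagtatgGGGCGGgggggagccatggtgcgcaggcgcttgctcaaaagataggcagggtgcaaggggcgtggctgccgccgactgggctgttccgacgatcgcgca
Syn1, chrX:20920869-20921168, minus strand: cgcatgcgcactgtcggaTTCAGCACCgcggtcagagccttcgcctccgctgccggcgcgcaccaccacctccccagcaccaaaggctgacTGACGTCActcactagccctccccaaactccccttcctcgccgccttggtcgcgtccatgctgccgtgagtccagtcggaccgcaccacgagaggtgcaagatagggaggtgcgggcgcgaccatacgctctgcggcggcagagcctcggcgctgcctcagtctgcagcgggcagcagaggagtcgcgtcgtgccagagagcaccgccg
Unc13b, chr4:43058703-43059002, plus strand: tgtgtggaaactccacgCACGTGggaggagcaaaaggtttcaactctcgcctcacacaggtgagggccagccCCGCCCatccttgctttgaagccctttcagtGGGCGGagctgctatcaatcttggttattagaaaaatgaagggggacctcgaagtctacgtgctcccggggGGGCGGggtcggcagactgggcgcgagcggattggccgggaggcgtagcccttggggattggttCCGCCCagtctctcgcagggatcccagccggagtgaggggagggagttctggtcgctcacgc
Unc13a, chr8:71671708-71672007, minus strand: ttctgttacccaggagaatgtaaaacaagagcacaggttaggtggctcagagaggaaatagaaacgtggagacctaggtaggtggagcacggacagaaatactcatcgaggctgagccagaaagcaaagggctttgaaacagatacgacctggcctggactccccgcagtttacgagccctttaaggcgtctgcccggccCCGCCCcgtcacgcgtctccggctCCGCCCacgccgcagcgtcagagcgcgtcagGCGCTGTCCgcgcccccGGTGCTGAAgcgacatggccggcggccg

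The GC box was found in 52 of the 70 promoters of the group, 74.3% against 35.7% of all 32851 promoters in the table. It occurs in those of Syt9, Syt10, Syt2, Syp, Unc13b and Unc13a, and not in that of Syn1. Both directions of change are therefore found among genes with the same letters. The Syn1 promoter holds a cyclic AMP response element 159 bases before the start, a motif in 2 of the 70 (2.86%) and 1.79% of all promoters. It also holds the left part of RE1 232 bases before the start, found in 2 of the 70 (2.86%) and 0.371% of all promoters. The other promoter of the group with it is that of Unc13a, which alone also holds the right part, present in 0.405% of all promoters. The E-box of Unc13b was matched in 8 of the 70 (11.4% against 7.15%). The EGR motif GCGGGGGCG was matched in 7 of the 70 (10.0% against 2.91%) and the TATA motif TATAAA in 3 (4.29% against 13.6%), none of them among those shown. These are matches of letters only. The 70 are 1 promoter per gene, the one nearest the GENCODE start, at up to 68793 bases from it (Cplx2). The 32851 are all promoters listed, with several for some genes, so the shares compare unlike sets.

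Synaptotagmins held most of the decreases of the group. Of 16 tested, 4 fell and none rose in zQ175 against wild-type, where 6.89% of all genes fell. In zQ175:Msh3-/- against Msh3-/- mice 5 fell, beside 5.96% of all genes. In the first comparison limma on TPM called Syt10 and Syt9 as lower and Syt5 as higher. In the second it called Syt10, Syt2 and Syt9 as lower. Syt9 (chromosome 7, 107370728 to 107548656), a sensor of fast release in limbic and striatal neurons, ran from 17.2 through a median of 19.2 to 24.6 CPM in wild-type mice and from 16.4 through 19.9 to 22.1 CPM in Msh3-/- mice. It ran from 10.5 through 12.2 to 13.7 CPM in zQ175 mice and from 10.9 through 12.6 to 14.6 CPM in zQ175:Msh3-/- mice. Every mouse with the zQ175 allele was thus below every mouse without it. The log2 fold change was -0.71 (SE 0.078) against wild-type and -0.64 (SE 0.078) on the Msh3-/- background, with edgeR adjusted p of 4.57e-09 and 6.03e-08.

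Syt10 (chromosome 15, 89782393 to 89841860), known for triggering release of insulin-like growth factor from olfactory bulb neurons, showed the largest decrease of the group. Its lowest, median and highest values were 6.83, 8.70 and 10.1 CPM in wild-type mice and 6.70, 8.23 and 10.4 CPM in Msh3-/- mice. With the zQ175 allele they were 4.01, 4.29 and 5.93 CPM, and 3.31, 4.84 and 6.40 CPM where Msh3 was lost as well. Again the ranges with and without zQ175 did not meet. The log2 fold changes were -0.85 (SE 0.12, edgeR adjusted p = 1.03e-06) and -0.74 (SE 0.12, edgeR adjusted p = 1.43e-05). Syt9 and Syt10 were the 2 genes of the group that changed by at least 1.5-fold in each comparison.

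Syt2 (chromosome 1, 134646677 to 134762593), the fast calcium sensor of many inhibitory and brainstem terminals, fell with more scatter. It ran from 89.3 through 104 to 115 CPM in wild-type and from 82.2 through 98.1 to 114 CPM in Msh3-/- mice. In zQ175 mice it ran from 53.6 through 74.1 to 97.5 CPM, and in zQ175:Msh3-/- mice from 39.4 through 68.1 to 83.2 CPM. The upper zQ175 values reached into the lower control values in both comparisons. The log2 fold changes were -0.47 (SE 0.11) and -0.54 (SE 0.11), with edgeR adjusted p of 0.0023 and 7.14e-04. With limma on log2(TPM + 0.1) Syt2 passed in the second comparison but not in the first.

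Syt6, expressed in deep cortical and striatal neurons and known from acrosomal exocytosis in sperm, fell by 0.28 on the log2 scale in both comparisons (SE 0.069 in each, edgeR adjusted p = 0.0026 and 0.0029). It had medians of 146, 140, 115 and 117 CPM, with overlapping ranges. Its call was lost in the first comparison without wild-type female 2 (log2 change -0.24), in the second without Msh3-/- male 2, zQ175:Msh3-/- female 1 or zQ175:Msh3-/- female 2 (-0.24, -0.26 and -0.25), and in limma on TPM in both. Syt12, a family member without calcium binding, had medians of 52.1, 53.1, 44.2 and 45.4 CPM in the 4 genotypes. Its ranges did not overlap in either comparison, yet only the second reached a fold change of 1.2 (log2 -0.30, SE 0.048, edgeR adjusted p = 1.47e-05, against -0.23, SE 0.048, adjusted p = 3.79e-04). Without zQ175:Msh3-/- female 1 the second value was -0.26 and no longer reached 1.2-fold, and limma on TPM called it in neither comparison.

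The most abundant synaptotagmins gave other values. Syt1 had medians of 838 CPM in wild-type and 814 CPM in zQ175 mice, with a log2 change of -0.03 (95% interval -0.14 to 0.07). Syt11 had medians of 872 and 868 CPM and a log2 change of 0.01 (-0.04 to 0.06). Syt5 and Syt7, the latter a slow high-affinity sensor, passed the adjusted p with higher values in both comparisons but stayed under 1.2-fold, at 0.21 and 0.19 against wild-type and 0.11 and 0.12 on the Msh3-/- background. Because Syt9 and Syt10 are scarce, they made up 0.81% and 0.66% of all synaptotagmin TPM in wild-type mice and 0.49% and 0.37% in zQ175 mice, while Syt1 made up 28.1% and 27.2%.

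**Figure D3:**
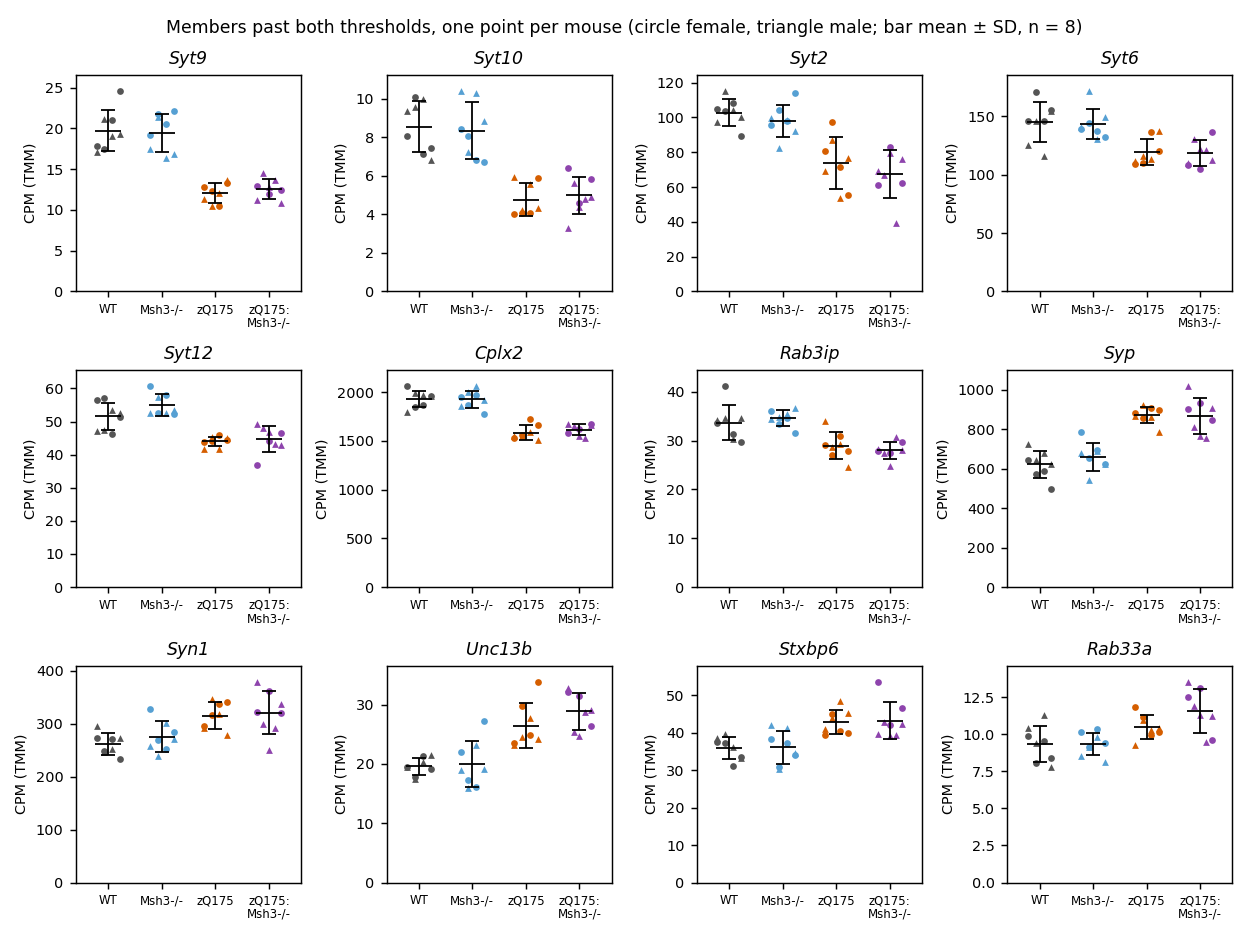
CPM of the 12 genes that passed both thresholds in at least 1 comparison, 1 point per mouse (circles females, triangles males), with mean ± SD of the 8 mice of each genotype. Syt9 and Syt10 separate zQ175 from other mice with no overlap, and the zQ175 and zQ175:Msh3-/- points overlap in each panel.

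Of the 3 complexins tested, Cplx2 (chromosome 13, 54371349 to 54383917) was the one that changed. It ran from 1801 through 1958 to 2062 CPM in wild-type and from 1779 through 1937 to 2060 CPM in Msh3-/- mice, against 1513 through 1555 to 1728 CPM in zQ175 and 1531 through 1635 to 1675 CPM in zQ175:Msh3-/- mice. The ranges did not overlap in either comparison, though the step was small. The log2 fold change was -0.29 (SE 0.033, edgeR adjusted p = 1.53e-08) against wild-type, and -0.25 (SE 0.033, adjusted p = 2.46e-07) on the Msh3-/- background, which is under 1.2-fold. In limma on TPM it stayed past the adjusted p but under 1.2-fold. Cplx1, the other abundant complexin, had medians of 495 CPM in wild-type and 510 CPM in zQ175 mice and a log2 change of 0.04 (95% interval -0.07 to 0.15). As a share of complexin TPM, Cplx2 went from 63.3% ± 1.76 (SD, n = 8) in wild-type to 57.9% ± 2.50 in zQ175 mice, and Cplx1 from 36.2% ± 1.69 to 41.4% ± 2.38. Cplx3, the retinal and deep cortical form, ranged from 2.00 to 16.7 CPM over all mice and its 95% interval of -0.64 to 0.66 is too wide to show a difference of the size seen for Cplx2.

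No SNARE gene passed both thresholds in either comparison, of 7 vesicle SNAREs and 17 target membrane SNAREs tested. Of all genes tested, 11.6% passed in the first and 10.6% in the second. Vamp2, which encodes synaptobrevin-2, had medians of 688, 709, 710 and 722 CPM in the 4 genotypes. Snap25 had medians of 1035, 994, 996 and 1006 CPM in the same order. The 95% intervals of the zQ175 effect were -0.04 to 0.12 for Vamp2 and -0.17 to 0.11 for Snap25 on the log2 scale. Both intervals lie inside the 1.2-fold threshold. Vamp4, an endosomal SNARE, had medians of 72.5, 73.1, 72.3 and 72.8 CPM and a log2 change of 0.02 (SE 0.032).

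By the adjusted p alone, 26.5% of all genes passed in the first comparison and 24.1% in the second, in either direction. Of the SNAREs tested, 5 target membrane SNAREs were higher by it in zQ175 against wild-type, all under 1.2-fold. They were Snap47 (log2 0.21), Stx17, the autophagosomal syntaxin (0.21), and the endosomal or Golgi syntaxins Stx7 (0.12), Stx12 (0.12) and Stx5a (0.12). All 5 were also higher by the adjusted p in the second comparison, at 0.16, 0.22, 0.18, 0.12 and 0.11, where Stx16 joined them at 0.11. Stx3 was lower at -0.18 in the first and -0.10 in the second, where it missed the adjusted p. Stx1a, which was singled out after its values were seen, had a log2 change of 0.37, larger than any of these, but its SE was 0.22 and its adjusted p 0.22. It varied between mice of the same genotype, from 32.6 to 62.4 CPM in wild-type and from 43.0 to 114 CPM in zQ175:Msh3-/- mice.

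Stx1a was high in the mice with high cortical pyramidal neuron markers and low in those with low ones. The summed level of these 6 markers was 63.2 to 326, 63.3 to 485, 60.1 to 417 and 155 to 704 CPM in the 4 genotypes, and none of the 6 was at 0. Of the 6, 1 passed both thresholds in zQ175 against wild-type and none in zQ175:Msh3-/- against Msh3-/- mice. The median log2 change of the 6 was nonetheless 0.61 in each comparison. Their summed level averaged 199 ± 110, 246 ± 144, 298 ± 114 and 371 ± 186 CPM in the 4 genotypes (SD, n = 8). With the log2 sum of these markers as a term of the model, an alternative chosen after seeing the data, the Stx1a change went from 0.37 to 0.08 (SE 0.074), that of Rims1 from 0.07 to -0.07 (SE 0.046), and that of Syn1 from 0.27 to 0.19 (SE 0.045). Syp went from 0.49 to 0.42 (SE 0.050) and Unc13b from 0.43 to 0.35 (SE 0.077), and both kept their calls, as did Syt9 at -0.66, Syt10 at -0.83, Syt2 at -0.48 and Cplx2 at -0.29. Syn1 and Syt6 (-0.21) then fell short of 1.2-fold, leaving 6 calls in the first comparison and 9 in the second. In the same edgeR fit Snap25 stood at -0.12 (SE 0.043, adjusted p = 0.041) and Syt1 at -0.10 (SE 0.036, adjusted p = 0.033) against wild-type. Both thus passed the adjusted p as lower, under 1.2-fold, which neither did without the marker term.

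**Figure D4:**
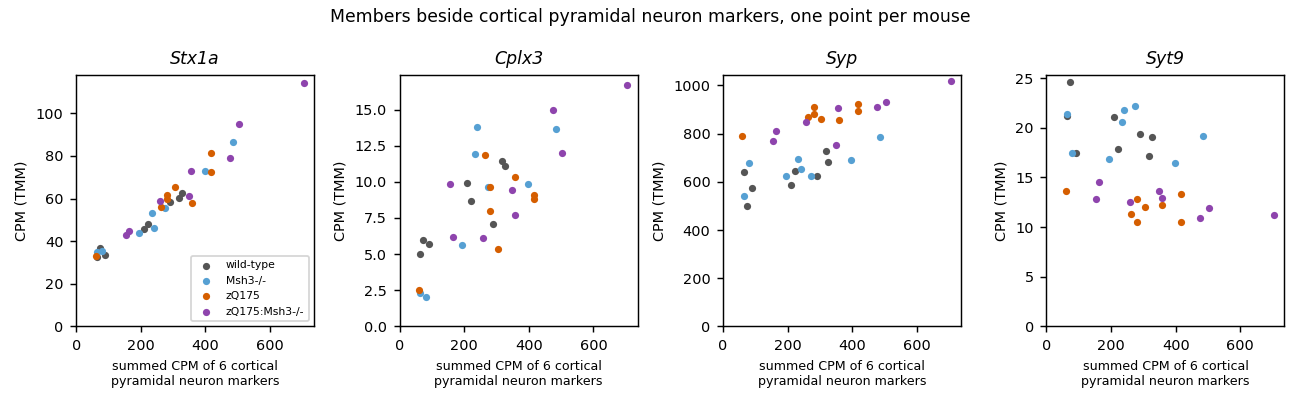
CPM of Stx1a, Cplx3, Syp and Syt9 against the summed CPM of 6 cortical pyramidal neuron markers, 1 point per mouse, coloured by genotype. Stx1a rises along the axis from 32.6 to 114 CPM within and across genotypes, whereas for Syp and Syt9 the zQ175 points lie apart from the others at the same marker level.

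Among active zone and priming genes, the scarce Munc13 paralog Unc13b rose and the most abundant one, Unc13a, was lower. Unc13b (chromosome 4, 43058953 to 43264871), which encodes Munc13-2, ran from 17.5 through 19.5 to 21.6 CPM in wild-type and from 23.1 through 24.7 to 33.9 CPM in zQ175 mice, with no overlap. In Msh3-/- mice it ran from 16.0 through 19.0 to 27.2 CPM and in zQ175:Msh3-/- mice from 24.8 through 29.0 to 32.9 CPM, where the highest Msh3-/- mice reached into the zQ175 range. The log2 fold changes were 0.43 (SE 0.093, edgeR adjusted p = 5.54e-04) and 0.53 (SE 0.093, adjusted p = 4.70e-05). Unc13a was lower at -0.24 (SE 0.052, adjusted p = 6.99e-04) and -0.21 (SE 0.052, adjusted p = 0.0022), past the adjusted p in both but under 1.2-fold, with medians of 370, 379, 326 and 325 CPM in the 4 genotypes. Unc13b made up 4.20% ± 0.72 (SD, n = 8) of Unc13 TPM in wild-type and 6.49% ± 1.12 in zQ175 mice, and Unc13a 58.3% ± 2.90 and 55.4% ± 3.74. Unc13c, at 37.2% and 37.8%, had log2 changes of -0.14 and -0.12 (SE 0.081 in both) and missed the adjusted p in both comparisons. Rims1, the main RIM scaffold, had medians of 126 and 130 CPM and a log2 change of 0.07 (SE 0.10).

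Of the 7 Munc18 and other syntaxin-binding genes, 0 were called in the first comparison and 1 in the second, beside 11.6% and 10.6% of all genes. Stxbp6, which encodes amisyn, a protein that binds the SNARE complex, had medians of 36.6, 35.9, 42.3 and 42.1 CPM in the 4 genotypes, with overlapping ranges. Its difference of 19.4% in the first comparison lay just outside the threshold and its 20.1% in the second just inside (log2 0.26 in both, SE 0.067 and 0.068, edgeR adjusted p = 0.0042 and 0.0036). The call came and went with single mice: it was gained in 8 of 16 fits that left out 1 mouse in the first comparison and lost in 6 of 16 in the second. In the second it was also lost with DESeq2 and with RLE size factors, while limma on TPM called it in both. Stxbp2, the Munc18 form best known from platelets and cytotoxic lymphocytes, passed the adjusted p at 0.21 and 0.19 and stayed under 1.2-fold.

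Of the Rab3 proteins and their regulators, 1 of 8 was called in 1 comparison, the second, where 10.6% of all genes were called. Rab3ip, which encodes Rabin8, an exchange factor for Rab8, had medians of 33.9 and 34.7 CPM in wild-type and Msh3-/- mice and 28.9 and 28.0 CPM in zQ175 and zQ175:Msh3-/- mice. It fell by 0.31 on the log2 scale in zQ175:Msh3-/- against Msh3-/- mice (SE 0.057, edgeR adjusted p = 1.07e-04), with no overlap of the ranges. Against wild-type the change was -0.22 (SE 0.057, adjusted p = 0.0034), under 1.2-fold, and the ranges overlapped. Limma on TPM called it in neither comparison. Rab3a, the most abundant vesicle Rab, had medians of 312 CPM in wild-type and 331 CPM in zQ175 mice, a log2 change of 0.10 that just passed the adjusted p (0.045), and 0.04 in the second comparison. Rab3c was lower at -0.13 and -0.11, past the adjusted p in the first comparison.

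Of the 8 vesicle membrane, synapsin and coat genes, 2 rose in the first comparison and 1 in the second, beside 4.7% and 4.68% of all genes. Syp (chromosome X, 7638471 to 7653256), which encodes synaptophysin, ran from 499 through 634 to 727 CPM in wild-type and from 788 through 874 to 921 CPM in zQ175 mice, with no overlap. In Msh3-/- mice it ran from 541 through 667 to 784 CPM and in zQ175:Msh3-/- mice from 755 through 876 to 1019 CPM, where the highest Msh3-/- mouse lay above the lowest zQ175:Msh3-/- mouse. The log2 fold changes were 0.49 (SE 0.067, edgeR adjusted p = 7.22e-07) and 0.39 (SE 0.066, adjusted p = 3.05e-05). Syn1 (chromosome X, 20860511 to 20921004), which encodes synapsin I, the phosphoprotein that tethers the reserve pool, ran from 234 through 261 to 296 CPM in wild-type and from 278 through 317 to 346 CPM in zQ175 mice. The 2 ranges overlapped, and its log2 changes were 0.27 (SE 0.068, adjusted p = 0.0030) and 0.22 (SE 0.068, adjusted p = 0.017), the second under 1.2-fold. The Syn1 call sat at the fold threshold (1.21-fold) and was lost in 7 of the 16 fits that left out 1 mouse, namely wild-type males 2 and 3, wild-type females 2 and 4, zQ175 male 2 and zQ175 females 3 and 4, where the log2 change was 0.25 to 0.26.

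Sv2a, the vesicle protein that binds the antiepileptic drug levetiracetam, ran from 366 to 433 CPM in wild-type and from 436 to 490 CPM in zQ175 mice. The ranges did not overlap, and the log2 change of 0.20 (SE 0.033, edgeR adjusted p = 1.33e-05) was under 1.2-fold, as was the 0.12 of the second comparison. Syn2 was higher at 0.16 past the adjusted p in the first comparison and at 0.13 without passing it in the second. Synpr, a synaptophysin relative, was instead lower, at -0.21 and -0.19, past the adjusted p in both and under 1.2-fold. Sv2c, the striatum-enriched SV2 form, had log2 changes of -0.10 and -0.05 and passed in neither.

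Syp, Syn1, Rab33a and Rab39b lie on the X chromosome, so the sexes were compared. Wild-type Syp was 669 ± 45.4 CPM in males and 576 ± 60.3 CPM in females (SD, n = 4 each), and zQ175 Syp was 859 ± 54.6 and 886 ± 22.3 CPM. Msh3-/- mice went the other way from wild-type, at 634 ± 68.6 CPM in males and 689 ± 69.9 CPM in females (n = 4 each). In zQ175:Msh3-/- mice Syp was 852 ± 111 CPM in males (n = 5) and 894 ± 43.4 CPM in females (n = 3). In fits on 1 sex, chosen after seeing the data, Syp rose by 0.36 in males and 0.62 in females in zQ175 against wild-type. The difference between the sexes was not tested. Syn1 changed by 0.21 in males (edgeR adjusted p = 0.26) and rose by 0.33 in females (adjusted p = 0.0034). Syt9 and Syt10 gave -0.69 and -0.84 in males and -0.72 and -0.86 in females. Syt2 passed in neither sex alone, at -0.53 in males (edgeR adjusted p = 0.075) and -0.41 in females (adjusted p = 0.088), with 4 mice a group.

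Of the Rab proteins outside the Rab3 group, 1 of 11 tested was called, in the second comparison, where 10.6% of all genes were called. Rab33a, a Golgi and vesicle Rab, had medians of 9.46, 9.31, 10.3 and 11.6 CPM in the 4 genotypes. Its log2 change was 0.31 (SE 0.077, edgeR adjusted p = 0.0026) on the Msh3-/- background and 0.16 (adjusted p = 0.12) against wild-type, with overlapping ranges in both. Rab37 had the lowest value of these, -0.45 in the second comparison, but its SE was 0.18 and its adjusted p 0.061. DESeq2 called it there, as did the edgeR fits without Msh3-/- male 4, zQ175:Msh3-/- female 2 or zQ175:Msh3-/- male 3.

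Loss of Msh3 was compared on both backgrounds. In zQ175:Msh3-/- against zQ175 mice, 0 of the 85 genes passed both thresholds in edgeR's test (0.00602% of all genes did), 0 of the 85 had an unadjusted p below 0.05 where 614 of all genes did, and DESeq2 and limma also called 0. In Msh3-/- against wild-type mice 0 of the 85 passed (0.00602% of all genes), with 1 of the 85 at an unadjusted p below 0.05 against 846 of all genes, and DESeq2 and limma again called 0. The interaction, which asks whether the zQ175 effect differed between Msh3 genotypes, was passed by 0 of the 85 (0% of all genes) in edgeR, with 0 of the 85 at an unadjusted p below 0.05 against 737 of all genes, and DESeq2 and limma called 0 as well. The intervals show how large a difference could have been missed. For zQ175:Msh3-/- against zQ175 the log2 change was 0.06 (95% interval -0.10 to 0.22) for Syt9, 0.05 (-0.19 to 0.30) for Syt10, -0.13 (-0.36 to 0.09) for Syt2, 0.03 (-0.04 to 0.09) for Cplx2, -0.01 (-0.14 to 0.12) for Syp and 0.13 (-0.05 to 0.31) for Unc13b. All 6 of these intervals leave out a change as large as the zQ175 effect in the opposite direction. The median standard error of the 85 was 0.056 in this comparison.

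**Figure D5:**
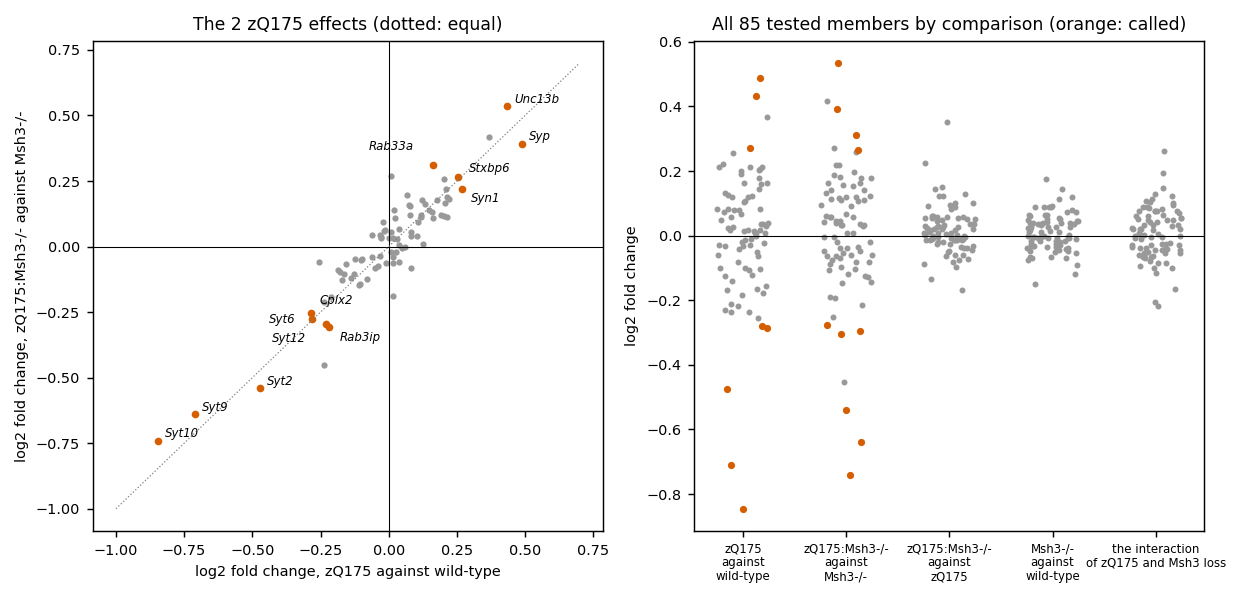
Left, log2 fold change of the 85 genes in zQ175 against wild-type (x) and zQ175:Msh3-/- against Msh3-/- (y), with the genes called in either comparison named. Right, the same 85 genes in each of the 5 comparisons, with called genes in orange. The zQ175 effects spread from -0.85 to 0.53, and no gene is called in the 3 comparisons on the right.

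Other presynaptic genes outside the name rule were read beside the group, from a list of 54 that covers active zone scaffolds, SNARE disassembly factors, vesicle transporters and endocytic proteins. All 54 were tested, and none passed both thresholds in zQ175 against wild-type in edgeR's test, beside 11.6% of all genes. By the adjusted p alone 8 were higher and 10 lower, beside 26.5% of all genes in either direction. The 3 higher genes with the smallest adjusted p were Ppfia2 (log2 0.22), a liprin scaffold, Rimbp2 (0.23), a RIM-binding protein, and Nrxn2 (0.13), a neurexin. The 3 lower were Scamp1 (-0.14), a vesicle carrier protein, Erc2 (-0.20), an active zone scaffold, and Napa (-0.13), the SNARE adaptor alpha-SNAP. In the second comparison, where 10.6% of all genes were called, Rimbp2 rose (0.27), and Lin7b (-0.30) and the vesicular acetylcholine transporter Slc18a3 (-0.42) fell. Slc17a7, a vesicular glutamate transporter of cortical cells, is also 1 of the 6 cortical markers and had a log2 change of 0.58 with an SE of 0.48.

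Several marker lists moved with the zQ175 allele, beside the decreases in synaptotagmins and Cplx2. The 9 spiny projection neuron markers had a median log2 change of -0.82 in the first comparison and -0.76 in the second, 8 of 9 lower in each. Of 7 striatal interneuron markers 2 and 3 fell, with a summed level of 365 to 441 CPM in wild-type and 344 to 385 CPM in zQ175 mice, a range that overlaps. In the first comparison 2 of 7 oligodendrocyte, 1 of 6 astrocyte, 0 of 6 microglia, 2 of 5 endothelial and 0 of 4 choroid plexus markers fell, and in the second 0 of each. By the adjusted p alone 3 astrocyte markers were lower in each comparison, and 2 and then 5 microglia markers. So were 4 interneuron and 2 oligodendrocyte markers in each, and 4 and then 0 endothelial markers. Of all genes, 26.5% and then 24.1% passed the adjusted p in either direction. The summed astrocyte level was 3465 to 3781 CPM in wild-type and 2930 to 3214 CPM in zQ175 mice, without overlap. It was 3229 to 3763 CPM in Msh3-/- and 2949 to 3427 CPM in zQ175:Msh3-/- mice, which overlap. The part of these markers in the changes of the release genes was not tested.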

How the data were processed

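Striatal RNA of 32 mice was analysed. The files the authors deposited hold raw whole-number counts for each gene and a length-normalized table named FPKM whose columns sum to 1000000, so its deposited values were read as TPM. Per the labels the genome build was GRCm38.p6; the aligner, counter and strand setting are not given in the sources used here. Without strand, reads of overlapping antisense genes cannot be told apart.

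Symbols and positions came from GENCODE M21 (54495 of 54532 identifiers matched), with Vamp7 on an unplaced scaffold. Counts were tested with edgeR 4.0.16 in R 4.3.3: TMM factors, its expression filter (16610 genes, 85 of the 91), robust quasi-likelihood fits and 1 model of 4 genotypes. A gene was called at a Benjamini-Hochberg adjusted p below 0.05 over all genes and a fold change of at least 1.2. Alternatives were DESeq2 1.42.0 without independent filtering, limma 3.58.1 on log2(TPM + 0.1) or log2(TPM + 1), which understates changes of low genes, and those of the closing section. In counts simulated for zQ175 against wild-type with 200 genes changed 1.5-fold, edgeR recovered 89% with 2 false calls among 16610 genes. Smaller changes, nearer the 1.2-fold threshold, were not simulated. The recovery of genes called under 1.5-fold, which are all those called except Syt9 and Syt10, was therefore not tested. Depth was 12359347 to 25030335 counts. The closest pair of mice of 1 genotype still differed, with a chi-square of 4.26 per degree of freedom, so no library was counted as a duplicate. P-values measure the spread between mice, which the labels number individually. Genes named are those called in any comparison and the 2 most abundant of each role, with the list genes of smallest adjusted p; some of these are not reported here. The members and lists were chosen with earlier results of these data known.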

Additional observations from a re-analysis of the deposited data

Results flagged for a closer look

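A gap test (Dixon) on the log2 CPM of the 26 named genes in 4 genotypes asked whether the highest or lowest mouse stood apart from the other 7. It marked 4 of 104 sets, and chance alone marks about 5.2. Cplx1 in zQ175 mice had a lowest value of 411 CPM in male 3 against 484 to 559 CPM in the others (gap to range 0.534). Rab3ip in wild-type mice had a highest value of 41.2 CPM in female 2 against 29.7 to 34.6 CPM (ratio 0.529). Syp in zQ175 mice had a lowest value of 788 CPM in male 4 against 857 to 921 CPM (ratio 0.537). Syt2 in zQ175:Msh3-/- mice had a lowest value of 39.4 CPM in male 4 against 61.3 to 83.2 CPM (ratio 0.592). Leaving out each of these mice in turn changed no call of the gene concerned in the 2 zQ175 comparisons.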

How the results depend on the processing

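In zQ175 against wild-type mice, the 8 calls were the same genes with DESeq2, size factors by RLE, all genes kept whatever their counts, a minimum of 10 counts in each library, a term for sex, a fit of the 2 genotypes alone, and the replicate block. With limma on TPM 9, 8 and 9 genes were called (2 lower in each), which added Stxbp2, Stxbp6, Syt5 and, in 2 of the 3 fits, Stx18, and dropped Cplx2, Syt2 and Syt6. Without the fold threshold 31 were called and at a fold of at least 1.5 only 2. Leaving out 1 mouse gave 7 to 9. In zQ175:Msh3-/- against Msh3-/- mice the alternatives gave 9 or 10 calls, 28 without the fold threshold and 2 at 1.5-fold, and leaving out 1 mouse gave 7 to 11. The 3 limma fits on TPM dropped Rab3ip, Syt12 and Syt6 and added Stx17, Stxbp2 and Syn1. Stxbp6 was lost with DESeq2, RLE size factors, no filter, the minimum of 10 counts, a term for sex and the replicate block. Of the settings chosen after seeing the data, the cortical marker sum gave 6 and 9, males only 6 and 11, and females only 10 and 5, with fewer mice in the last pairs. In the second comparison females only called Stx18, Stxbp6 and Syp as higher and Syt12 and Syt9 as lower. Syt10, Syt2, Syt6 and Unc13b, called in both comparisons with all mice, were not called there. Males only did not call Syt2 in the second comparison. No called fold change against wild-type turned its direction. The count of calls was 0 for both Msh3 comparisons and the interaction under every alternative run.

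Replicate numbers were not treated as pairs. Across genotypes, 45 pairs with the same number and sex had a median correlation of 0.042 in their deviations, and 10 were over 0.1. The other 339 pairs had a median of -0.020, and 56 were over 0.1. Those 339 mix the sexes, so the check cannot tell a shared number from a shared sex. The replicate block gave 8 and 9 calls. Syt10, called in both comparisons, rested on 3.31 to 10.4 CPM in a mouse.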
